A study of Mus musculus with 12 samples.

Results

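The genes described here are the chemokine receptors that guide T cells out of the blood and into inflamed tissue, skin, airway and gut, namely Ccr2, Ccr3, Ccr4, Ccr6, Ccr8, Ccr9, Cxcr3, Cxcr6 and Gpr15. They were chosen by symbol, with earlier results of these data known. All 9 were found among the 25189 genes of the count table. The 12 RNA-seq libraries, 4 for each of 3 groups, were made from spleen Treg cells. These regulatory CD4 T cells hold immune responses in check and depend on the transcription factor Foxp3. Every mouse was a female of 4 weeks, and its Treg cells had been sorted by flow cytometry, with a second sort to raise purity, as CD4+RFP+ or CD4+YFP+ cells. The labels name mice of the genotypes Foxp3ΔEGFPiCre/RFP R26YFP and Foxp3ΔEGFPiCre/+ RictorΔ/Δ R26YFP. WT cells carried the Foxp3RFP allele, which marks working Foxp3 in red. Foxp3-deficient cells carried the Foxp3ΔEGFPiCre allele, which makes a green reporter and Cre recombinase under the control of Foxp3 and leaves no working Foxp3, with a yellow Cre reporter at R26. Double-deficient cells carried Foxp3ΔEGFPiCre and lacked Rictor as well, deleted by the same Cre; Rictor is the defining subunit of mTOR complex 2.

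These mice are heterozygous for Foxp3, an X-linked gene, so that they still have Treg cells that use the intact allele (RFP or +) beside the deficient cells. WT cells were red and deficient cells yellow, so that an effect of the reporter cannot be told apart from one of genotype, and no label ties a library to a mouse. Each p-value therefore measures only how far these libraries scatter. The reads assigned to genes numbered 15769737 to 26114044 per library. In this bulk measurement, fewer cells that carry a receptor and less receptor RNA per cell cannot be told apart. Foxp3 itself stood at 556 to 705 counts scaled to the library size (CPM) in WT, 87.9 to 142 in Foxp3-deficient libraries and 91.8 to 122 in double-deficient libraries. Rictor stood at 133 to 168, 163 to 229 and 130 to 157 CPM in the same order, with a log2 fold change of -0.42 between the 2 deficient groups (edgeR adjusted p = 0.0129), and its double-deficient range overlapped that of WT (-0.08, adjusted p = 0.626). The call between the deficient groups was lost with length and GC trends removed (-0.21, edgeR adjusted p = 0.0982). It was also lost with replicate number added to that fit as a block (-0.20, adjusted p = 0.164). Counts cover the whole gene, so they do not check the deleted exons of Foxp3 or Rictor. The summed level of the 8 Treg and T cell markers was 4642 to 4955 CPM in WT, 3246 to 3922 in Foxp3-deficient libraries and 3717 to 4250 in double-deficient libraries, and none of these 8 lacked reads in any group. This sum includes Foxp3 itself, and its genes split in Foxp3-deficient against WT cells. There 1 (Cd4) was higher and 4 (Foxp3, Il2ra, Ikzf2 and Tnfrsf18) lower at an edgeR adjusted p under 0.05, beside 6.99% and 6.74% of all genes. B cell markers summed to 1257 to 1484, 671 to 833 and 773 to 940 CPM in WT, Foxp3-deficient and double-deficient libraries, with no read of Ms4a1 in the Foxp3-deficient group. Markers of plasmacytoid dendritic cells summed to 63.6 to 83.7, 38.0 to 48.7 and 41.2 to 53.7 CPM, and Siglech had no read in WT.

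Chemokine receptors are membrane proteins that couple to inhibitory G proteins, and a cell that carries one moves up the gradient of its chemokine. Ccr8, Ccr4 and Ccr3 are tied to skin, airway and type 2 inflammation, and respond to Ccl1, to Ccl17 and Ccl22, and to the eotaxins. Ccr2, Cxcr3 and Cxcr6 lead cells into inflamed tissue along Ccl2, the interferon-induced Cxcl9 and Cxcl10, and Cxcl16. Ccr6, Ccr9 and Gpr15 serve the gut: Ccr6 binds Ccl20, Ccr9 binds Ccl25 of the small intestine, and Gpr15 leads T cells to the large intestine. Foxp3 together with lineage factors of helper T cells sets which of these receptors a Treg cell makes.

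Of the 9 genes, 6 lie on chromosome 9, and 4 of these (Ccr9, Cxcr6, Ccr3 and Ccr2) fall within one stretch of 435 kb. In the GENCODE M21 annotation of GRCm38, Ccr9 occupies chr9:123678439-123784330, Cxcr6 chr9:123806475-123811760, Ccr3 chr9:124021972-124031689 and Ccr2 chr9:124101950-124113557, all on the plus strand. Ccr8 lies apart at chr9:120092114-120094906 on the plus strand and Ccr4 at chr9:114490316-114504916 on the minus strand. Ccr6 is at chr17:8236043-8257141 on the plus strand, Gpr15 at chr16:58717433-58719070 and Cxcr3 at chrX:101731535-101734269, both on the minus strand. All are protein-coding, and values are sums over their exons. Gpr15 shares 204 bp of exon (12.5% of its length) with Cpox on the opposite strand. As the strand setting of the counting is not given in the sources used here, reads in that stretch cannot be assigned to either gene. Cxcr6 sits inside Fyco1 and the body of Ccr9 spans Lztfl1, both without exonic overlap, while 18.8% of the exonic length of Ccr9 is shared with an antisense transcript. Stretches of 50 bases shared with the same strand of another gene made up 1.91% of Ccr2, 2.13% of Ccr9 and 0.465% of Ccr4, and 0% of the others.

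The sequences before the start sites of 4 members are shown because these genes differed most between the groups: Ccr8 and Ccr3 were lower and Cxcr6 and Ccr9 higher in Foxp3-deficient cells. They were chosen after these values were seen. They come from RefSeq on GRCm38.p6, are written 5′ to 3′ along the gene's own (plus) strand and stop before any annotated exon. Capitals mark matches to the short motifs searched, a GATA motif (AGATAA, or TTATCT on the other strand), an AHR motif (GCGTG or CACGC) and a RUNX motif (TGTGGT or ACCACA).

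Ccr8 (chr9:120091883-120092113): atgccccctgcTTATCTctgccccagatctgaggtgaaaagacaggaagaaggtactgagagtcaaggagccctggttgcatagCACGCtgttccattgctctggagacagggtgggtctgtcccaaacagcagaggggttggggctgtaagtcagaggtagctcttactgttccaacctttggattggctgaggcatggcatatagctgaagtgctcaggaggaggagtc

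Ccr3 (chr9:124021721-124021970): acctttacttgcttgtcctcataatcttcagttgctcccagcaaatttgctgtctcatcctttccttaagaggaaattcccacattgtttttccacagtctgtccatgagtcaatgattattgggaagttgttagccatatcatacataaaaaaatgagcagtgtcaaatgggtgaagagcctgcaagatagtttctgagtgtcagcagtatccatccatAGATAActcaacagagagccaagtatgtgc

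Cxcr6 (chr9:123806227-123806474): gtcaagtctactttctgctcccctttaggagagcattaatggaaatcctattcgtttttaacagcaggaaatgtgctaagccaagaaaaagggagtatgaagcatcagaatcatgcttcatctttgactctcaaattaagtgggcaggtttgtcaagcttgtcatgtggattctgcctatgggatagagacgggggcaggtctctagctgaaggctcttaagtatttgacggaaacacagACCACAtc

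Ccr9 (chr9:123766961-123767168): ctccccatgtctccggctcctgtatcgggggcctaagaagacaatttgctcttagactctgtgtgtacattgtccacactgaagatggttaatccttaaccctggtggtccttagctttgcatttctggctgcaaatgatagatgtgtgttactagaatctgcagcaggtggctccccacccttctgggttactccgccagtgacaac

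On both strands of the 250 bases before each RefSeq start, 7 motifs were searched, and the matches in the members did not overlap one another. GATA was found for Ccr2, Ccr3, Ccr8 and 1 of the 2 starts of Ccr6, and is present in 9.99% of all 32851 promoters. RUNX was found once each for Cxcr3 and Cxcr6 and at 2 places for Gpr15 (14.0% of promoters), and AHR for Ccr8 and Cxcr3 (28.2%). The forkhead motif TGTTTA, of the kind Foxp3 and Foxo1 bind, was found only for Cxcr3 among the members (12.03% of promoters). The ROR motif AGGTCA (14.0%) and the STAT motif TTCNNNGAA (7.02%) were found for the other Ccr6 start, and the T-box motif GGTGTG (16.3%) for Ccr9, in the part of its window that overlaps an exon and is not printed. Ccr4 had no match. These are matches of letters in a short window and do not show binding.

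Scaled to length, Cxcr3 and Ccr8 stood far above the other receptors in WT Treg cells. Cxcr3 reached 83.8 ± 8.91 and Ccr8 63.4 ± 12.8 CPM per kb of exon (mean ± SD, n = 4 here and throughout), and the libraries of these 2 genes overlapped. Together they made up most of the summed receptor level, 40.9% and 30.8% of it. Cxcr6 (15.2 ± 3.78), Gpr15 (12.9 ± 1.32), Ccr4 (12.2 ± 0.721) and Ccr6 (10.6 ± 1.37) followed, and each overlapped its neighbour in that order. Ccr2 (4.82 ± 1.13), Ccr9 (1.12 ± 0.183) and Ccr3 (0.925 ± 0.359) were lowest, and the last 2 overlapped. In Foxp3-deficient cells Cxcr3 (56.3 ± 35.5) and Cxcr6 (37.9 ± 22.8) led with overlapping libraries, and Ccr8 (10.5 ± 5.002) had moved to the sixth place, between Ccr2 (10.7 ± 3.55) and Gpr15 (9.49 ± 2.23). In double-deficient cells Cxcr6 was highest at 94.8 ± 19.6, above Cxcr3 at 53.9 ± 6.63 in every library, and Gpr15 followed at 29.2 ± 9.88. Ccr3 was the lowest member in all 3 groups.

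The summed level of the 9 receptors was 205 ± 21.9 CPM per kb in WT, 166 ± 63.0 in Foxp3-deficient libraries and 253 ± 36.4 in double-deficient libraries, and the ranges overlapped (178 to 224, 128 to 260 and 203 to 281). Its makeup differed between the groups. Cxcr6 supplied 7.35% ± 1.36 of it in WT, 21.8% ± 4.73 in Foxp3-deficient cells and 37.5% ± 4.37 in double-deficient cells, while Ccr8 went from 30.8% ± 4.01 to 6.18% ± 0.688 and 5.48% ± 1.79. These levels use the length of all annotated exons. With the median coding transcript instead (3004 against 10260 bases for Ccr9, 3257 against 6760 for Ccr2), Cxcr3 and Ccr8 still led in WT, Cxcr6 and Cxcr3 in double-deficient cells, and Ccr4 came next after them in WT and second in Foxp3-deficient cells.

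**Figure D1:**
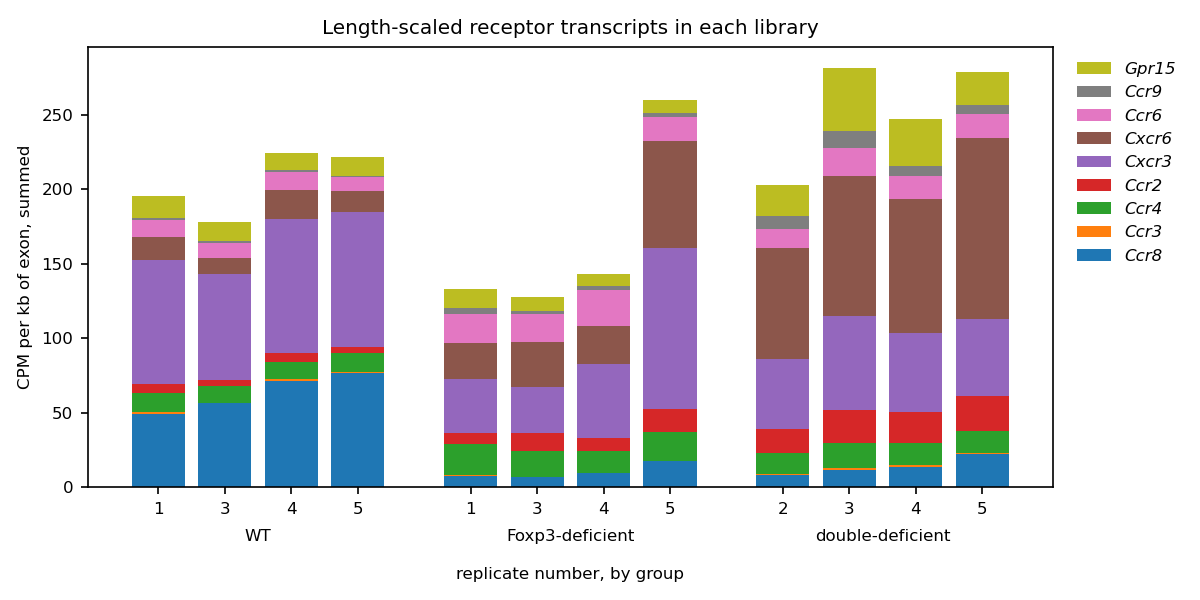
Level of each receptor per library in CPM per kb of exon, stacked; each bar is 1 library, numbered by replicate within its group. The Ccr8 block is tall in WT bars only, the Cxcr6 block is tallest in double-deficient bars, and the bar of Foxp3-deficient 5 (260) stands above those of the other 3 Foxp3-deficient libraries.

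The first comparison asked how the receptors differ between Treg cells that have lost Foxp3 and WT cells. The receptors of skin and type 2 inflammation split: Ccr8 fell 6.001-fold and Ccr3 15.6-fold, while Ccr4 rose 1.495-fold. Among the receptors of inflamed tissue Ccr2 rose 2.23-fold and Cxcr6 2.499-fold, and among those of the gut Ccr6 rose 1.86-fold and Ccr9 2.72-fold. In all, 5 of the 9 receptors were called higher and 2 lower by edgeR's quasi-likelihood test at an adjusted p under 0.05, where 13.7% of the 13196 genes tested were called (6.99% higher and 6.74% lower). The same 7 receptors did not overlap between the 2 groups, as 17.8% of all genes did not (8.52% higher and 9.26% lower). The median log2 fold change was 0.58 over the 9 receptors and 0.000451 over all genes. All 9 had enough reads to be tested in every comparison.

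Ccr8, a receptor that marks Treg cells of skin and tumours, had 57.9, 66.2, 83.8 and 90.2 CPM in WT libraries 1, 3, 4 and 5 and 9.31, 7.98, 11.1 and 20.9 CPM in Foxp3-deficient libraries 1, 3, 4 and 5. Every Foxp3-deficient library lay below the lowest WT library. This was a log2 fold change of -2.59 ± 0.33 (SE; edgeR adjusted p = 0.000119).
Ccr3, the eotaxin receptor best known from eosinophils, was close to absent in the Foxp3-deficient group. It had 3.97, 1.60, 4.00 and 2.53 CPM in WT (265 reads in all) and 0.271, 0, 0 and 0.433 CPM in Foxp3-deficient libraries (15 reads). The 2 libraries without a read, Foxp3-deficient 3 and 4, allow up to 0.184 and 0.155 CPM (3 reads, counting error only), which is below the lowest WT value. The log2 fold change was -3.97 ± 0.65 (edgeR adjusted p = 0.000502), and without Foxp3-deficient 5, which held 10 of the 15 reads, it was -4.95. The 4 eosinophil markers summed to at most 0.147 CPM in WT, 0.0541 in Foxp3-deficient libraries and 0.328 in double-deficient libraries, and Epx had no read in WT. The single basophil and mast cell marker in the table, Cpa3, was at most 0.937 CPM in any library.

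Ccr4, which leads T cells to skin and to Ccl22-producing dendritic cells, was at 39.9, 35.0, 36.8 and 39.0 CPM in WT and 64.4, 55.1, 47.0 and 59.0 CPM in Foxp3-deficient libraries. The groups did not overlap, and the step was the smallest among the 7 called members (log2 fold change 0.58 ± 0.11, edgeR adjusted p = 0.00145).

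Ccr2, the receptor for Ccl2 on monocytes and effector T cells, had 40.5, 24.5, 37.5 and 27.8 CPM in WT and 51.9, 78.6, 55.9 and 104 CPM in Foxp3-deficient libraries. The lowest Foxp3-deficient library was above the highest WT library, and Foxp3-deficient 5 was the highest. Its log2 fold change was 1.16 ± 0.22 (edgeR adjusted p = 0.00246). The 7 myeloid markers summed to 4.41 to 5.45 CPM in WT and 4.28 to 16.0 CPM in Foxp3-deficient libraries, with no read of Adgre1 in either. Of the 4 that could be tested, Fcgr3 (1.71, edgeR adjusted p = 0.0488) and Ly6c2 (1.87, adjusted p = 0.0472) were called higher and 0 lower, with a median of 1.78, and both calls were lost when any of WT 1, 3 and 5 and Foxp3-deficient 3 and 5 was left out (adjusted p up to 0.137 and 0.178). The part of these genes in the rise of Ccr2 was not tested.

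Cxcr6, the receptor for Cxcl16 on tissue-resident and effector T cells, had 30.6, 21.0, 38.4 and 27.0 CPM in WT and 46.9, 58.1, 48.9 and 139 CPM in Foxp3-deficient libraries. Here too the groups did not overlap, but Foxp3-deficient 5 stood far above the other 3. The log2 fold change was 1.32 ± 0.34 (edgeR adjusted p = 0.0255) with that library and 0.80 without it. The call was lost when any of WT 1, WT 3 or WT 5 was left out (adjusted p = 0.0592, 0.0735 and 0.0718 from edgeR).

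Cxcr3, the receptor of the Th1 type that leads cells to interferon-induced chemokines, had 144, 124, 156 and 157 CPM in WT and 62.6, 53.9, 86.3 and 187 CPM in Foxp3-deficient libraries. Foxp3-deficient 1, 3 and 4 were below all WT libraries and Foxp3-deficient 5 was above them all. The groups therefore overlapped, and the log2 fold change of -0.57 ± 0.32 did not pass the test (edgeR adjusted p = 0.303). Without Foxp3-deficient 5 it was -1.11, with an edgeR adjusted p of 8.77e-05.

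Foxp3-deficient 5 was the highest of its group for 5 of the 9 receptors, and it differed from the other 3 libraries in other genes as well. Tbx21, the factor that drives Th1 cells and Cxcr3, was at 113 CPM there against 19.1 to 26.9 CPM in the others. Cx3cr1, a receptor of cytotoxic effector cells, was at 24.3 CPM against 0 to 2.38, and Ccl5 at 32.3 against 1.08 to 4.03. The part of these genes in the receptor values was not tested.

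Among the gut receptors, Ccr6, the receptor for Ccl20 on Th17 cells and Treg cells, had 26.7, 23.1, 27.6 and 20.8 CPM in WT and 45.5, 43.9, 56.3 and 36.8 CPM in Foxp3-deficient libraries. The groups did not overlap, and Foxp3-deficient 5 was the lowest of its group here. Ccr6 thus had a log2 fold change of 0.89 ± 0.15 (edgeR adjusted p = 0.000707).

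Ccr9, the receptor that leads T cells to the small intestine, had 13.2, 12.9, 10.5 and 9.35 CPM in WT and 39.95, 21.4, 31.7 and 31.8 CPM in Foxp3-deficient libraries. Every Foxp3-deficient library was above every WT library. The log2 fold change was 1.45 ± 0.21 (edgeR adjusted p = 0.000215), the largest rise among the 9.

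Gpr15, the receptor that leads Treg cells to the large intestine, had 23.95, 21.1, 18.8 and 20.4 CPM in WT and 20.8, 14.9, 12.6 and 14.0 CPM in Foxp3-deficient libraries. Foxp3-deficient 1 reached into the WT range, and the log2 fold change of -0.44 ± 0.21 did not pass the test (edgeR adjusted p = 0.206). Cpox, which shares exonic sequence with Gpr15 on the other strand, had a log2 fold change of -0.48 (edgeR adjusted p = 0.0148), a call lost without Foxp3-deficient 1 and 3 together (adjusted p = 0.0841).

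**Figure D2:**
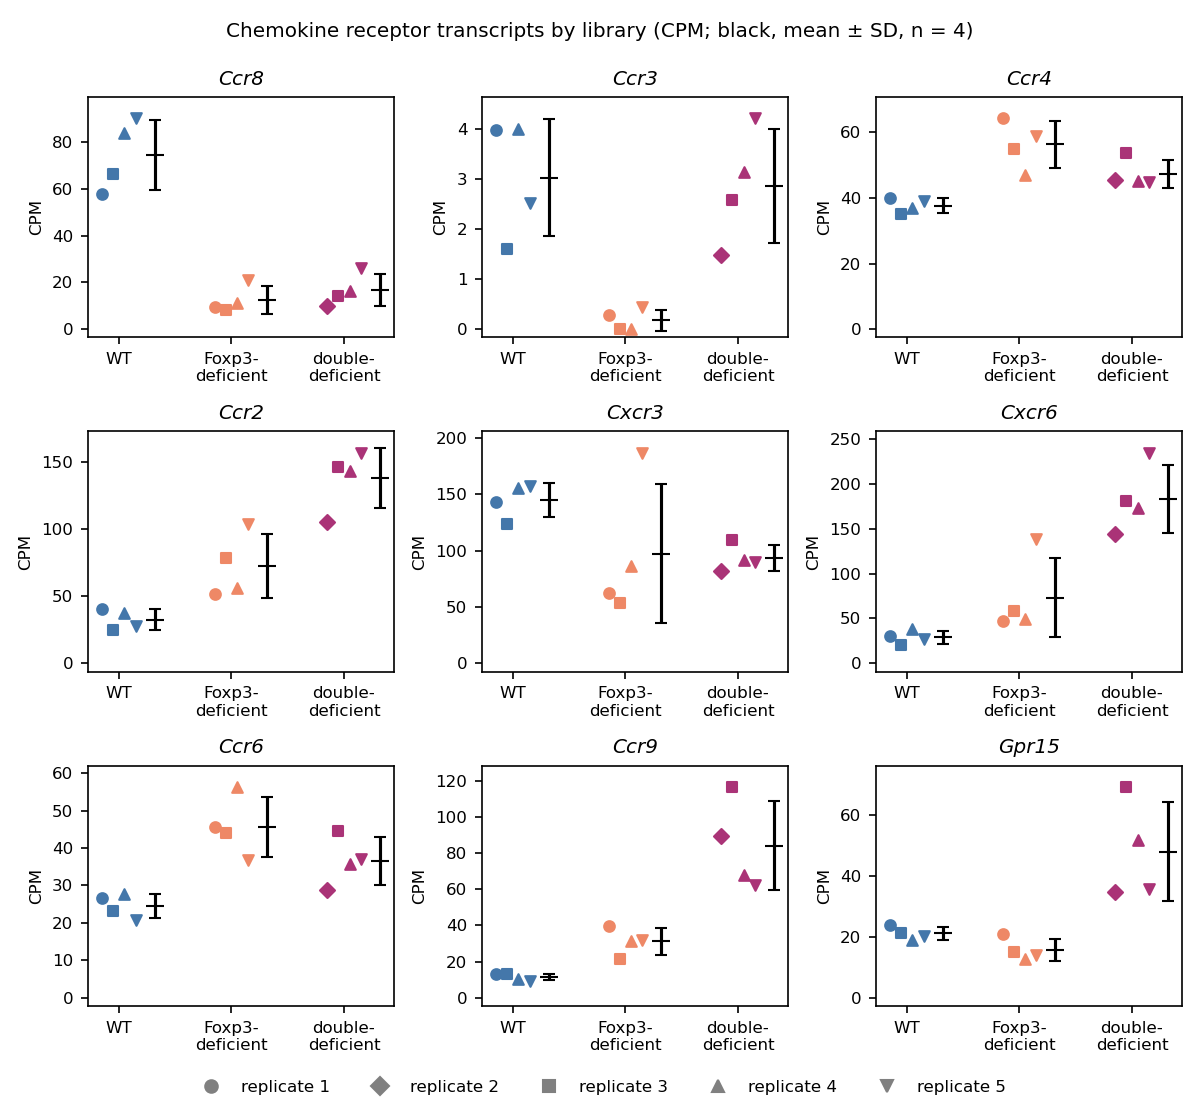
Level of each receptor in CPM by library (points, shaped by replicate number) with the group mean ± SD (black, n = 4); each panel has its own linear axis from 0. Ccr8 is high in WT only, Ccr3 is near 0 in the Foxp3-deficient group only, and Cxcr3 and Cxcr6 of Foxp3-deficient 5 (187 and 139 CPM) lie far above the other 3 libraries of that group.

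The second comparison set double-deficient cells against Foxp3-deficient cells. By the labelled genotypes, double-deficient cells came from mice whose intact Foxp3 allele was + in place of RFP. An effect of Rictor loss therefore cannot be told apart from one of the mice the cells came from, here or against WT cells. Of the 9 receptors, 5 rose and 0 fell: Ccr3 14.6-fold, Gpr15 3.08-fold, Ccr9 2.70-fold, Cxcr6 2.49-fold and Ccr2 1.90-fold. Ccr8, Ccr4, Ccr6 and Cxcr3 did not pass the test, with 1 of them (Ccr4) lower at an unadjusted p under 0.05 in edgeR and 0 lower with DESeq2 or limma-voom. In this comparison 27.2% of all genes tested were called by edgeR (13.9% higher and 13.3% lower), and 25.0% did not overlap between the groups. The median log2 fold change was 0.93 over the 9 receptors and -0.02 over all genes. This comparison and the first use the same 4 Foxp3-deficient libraries, so that a library that is low or high there moves both in opposite directions. Measures of library quality also separated the groups: 4.63% to 5.47% of reads fell outside genes in double-deficient and 6.22% to 9.27% in Foxp3-deficient libraries, and 31.1% to 33.1% against 23.0% to 29.5% had no unique alignment. Their part in the receptor values was not tested.

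Gpr15 had 34.7, 69.1, 51.7 and 35.8 CPM in double-deficient libraries 2, 3, 4 and 5, against a Foxp3-deficient maximum of 20.8 CPM. All 4 were above every library of the other 2 groups. The log2 fold change was 1.62 ± 0.21 (edgeR adjusted p = 0.000185), and the exonic partner Cpox was at 46.9 to 55.4 CPM, against 31.3 to 48.5 in Foxp3-deficient libraries.

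Ccr9 reached 89.5, 117, 68.0 and 62.6 CPM in double-deficient libraries. The lowest of these was above the highest Foxp3-deficient library (39.95 CPM), and the log2 fold change was 1.43 ± 0.21 (edgeR adjusted p = 0.000393). Side by side, the steps of Ccr9 were thus 1.45 from WT to Foxp3-deficient and 1.43 from Foxp3-deficient to double-deficient cells.

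Ccr3 returned to 1.49, 2.57, 3.14 and 4.21 CPM (231 reads in all), within or close to the WT range of 1.60 to 4.00. All 4 libraries were above the highest Foxp3-deficient one (0.433 CPM). The log2 fold change was 3.87 ± 0.65 (edgeR adjusted p = 0.00111), and 4.86 without Foxp3-deficient 5.

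Ccr2 had 106, 146, 143 and 157 CPM and Cxcr6 144, 181, 173 and 235 CPM in double-deficient libraries. Double-deficient 2 was the lowest for both, and in each case it lay only just above Foxp3-deficient 5 (104 CPM for Ccr2 and 139 CPM for Cxcr6). The log2 fold changes were 0.93 ± 0.22 for Ccr2 (edgeR adjusted p = 0.00843) and 1.32 ± 0.34 for Cxcr6 (edgeR adjusted p = 0.0163), and they were 1.16 and 1.84 without Foxp3-deficient 5. Both calls were lost without Foxp3-deficient 1 and 3 together (edgeR adjusted p = 0.0590 and 0.123). The myeloid markers summed to 11.1 to 21.0 CPM in double-deficient libraries. Ly6c2 made up most of this sum at 7.13 to 16.5 CPM (1.04, edgeR adjusted p = 0.155), Fcgr3 was called higher (1.54, adjusted p = 0.0244, up to 0.0699 with 1 library left out), and Lyz2 and Csf1r reached at most 0.438 and 0.631 CPM. Their part in the rise of Ccr2 was not tested. Natural killer and CD8 markers summed to 31.0 to 34.0 CPM, against 23.3 to 29.2 in Foxp3-deficient libraries, but did not move together. Of the 4 tested, Cd8b1 was called higher (0.61, edgeR adjusted p = 0.00425). Eomes was called lower (-0.73, adjusted p = 0.0381, up to 0.109 with 1 library left out). The part of these markers in the rise of Cxcr6 was not tested either.

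The other 4 receptors showed smaller differences. Ccr8 had 9.70, 14.0, 16.5 and 25.99 CPM in double-deficient libraries, overlapping the Foxp3-deficient range of 7.98 to 20.9. Its log2 fold change was 0.41 ± 0.32 (edgeR adjusted p = 0.365), and 0.81 with an edgeR adjusted p of 0.0402 without Foxp3-deficient 5. Ccr4 had 45.5, 53.7, 45.1 and 44.8 CPM (log2 fold change -0.25 ± 0.11, edgeR adjusted p = 0.0888), and it was called lower when Foxp3-deficient 4 was left out (-0.33, edgeR adjusted p = 0.0421). Ccr6 had 28.9, 44.7, 35.7 and 37.1 CPM (log2 fold change -0.32 ± 0.15, edgeR adjusted p = 0.126). Both genes overlapped the Foxp3-deficient range. Cxcr3 had 82.0, 109, 92.0 and 89.8 CPM, inside the wide Foxp3-deficient range, with a log2 fold change of -0.07 ± 0.32 (edgeR adjusted p = 0.896). Without Foxp3-deficient 5 its sign turned, to 0.47 with an edgeR adjusted p of 0.0245.

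The third comparison set double-deficient cells directly against WT cells and does not use the Foxp3-deficient libraries other than for the shared estimate of spread. Ccr9 rose 7.35-fold, Cxcr6 6.23-fold, Ccr2 4.24-fold, Gpr15 2.27-fold, Ccr6 1.49-fold and Ccr4 1.25-fold, and Ccr8 fell 4.52-fold. These were 6 receptors called higher and 1 called lower, where 32.6% of all genes were called by edgeR (15.8% higher and 16.8% lower) and 39.7% did not overlap (20.5% higher and 19.2% lower). The median log2 fold change was 0.57 over the 9 receptors and -0.03 over all genes. Library quality separated these groups too: 4.63% to 5.47% of reads fell outside genes in double-deficient and 7.52% to 8.75% in WT libraries, and 31.1% to 33.1% against 25.9% to 28.5% had no unique alignment. The sum of the myeloid markers was higher in every double-deficient library (11.1 to 21.0 against 4.41 to 5.45 CPM), as was that of the natural killer and CD8 markers (31.0 to 34.0 against 25.1 to 28.9 CPM). Among the latter, Cd8b1 was called higher (0.50, edgeR adjusted p = 0.00869), and 0 were called lower by edgeR but 1 each by DESeq2 and limma-voom. Klrb1c was at 2.06 to 4.25 CPM in WT and 0.149 to 1.58 CPM in double-deficient libraries. Of the myeloid markers, Fcgr3 and Ly6c2 were called higher (3.25 and 2.91, edgeR adjusted p = 0.000321 and 0.00224). Cd68 was called lower (-1.04, edgeR adjusted p = 0.0202, up to 0.0534 with 1 library left out). The part of these measures in the receptor values was not tested.

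For Ccr9, Cxcr6 and Ccr2 every double-deficient library was above every WT library, with log2 fold changes of 2.88 ± 0.22, 2.64 ± 0.36 and 2.08 ± 0.22 (edgeR adjusted p = 2.39e-07, 0.000283 and 1.66e-05). Gpr15 likewise did not overlap (1.18 ± 0.21, edgeR adjusted p = 0.000635), and it is the one member called against both other groups while the step from WT to Foxp3-deficient cells was not. Ccr8 remained below the WT range in all 4 libraries (-2.18 ± 0.32, edgeR adjusted p = 0.000314). Ccr6 (0.57 ± 0.15, edgeR adjusted p = 0.00986) did not overlap either, although double-deficient 2 at 28.9 CPM was only just above WT 4 at 27.6. For Ccr4 (0.33 ± 0.11, edgeR adjusted p = 0.0299) the call was lost when WT 3, WT 4 or double-deficient 3 was left out, with adjusted p of 0.0874, 0.0765 and 0.0985 from edgeR.

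Ccr3 had overlapping values in these 2 groups, and its log2 fold change of -0.09 ± 0.50 did not pass the test (edgeR adjusted p = 0.901). Cxcr3 was lower in every double-deficient library (82.0 to 109 CPM) than in every WT library (124 to 157 CPM). With the spread estimated over all 3 groups its log2 fold change of -0.64 ± 0.32 was not called (edgeR adjusted p = 0.148), while a fit of these 2 groups alone gave -0.64 with an edgeR adjusted p of 0.000146.

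**Figure D3:**
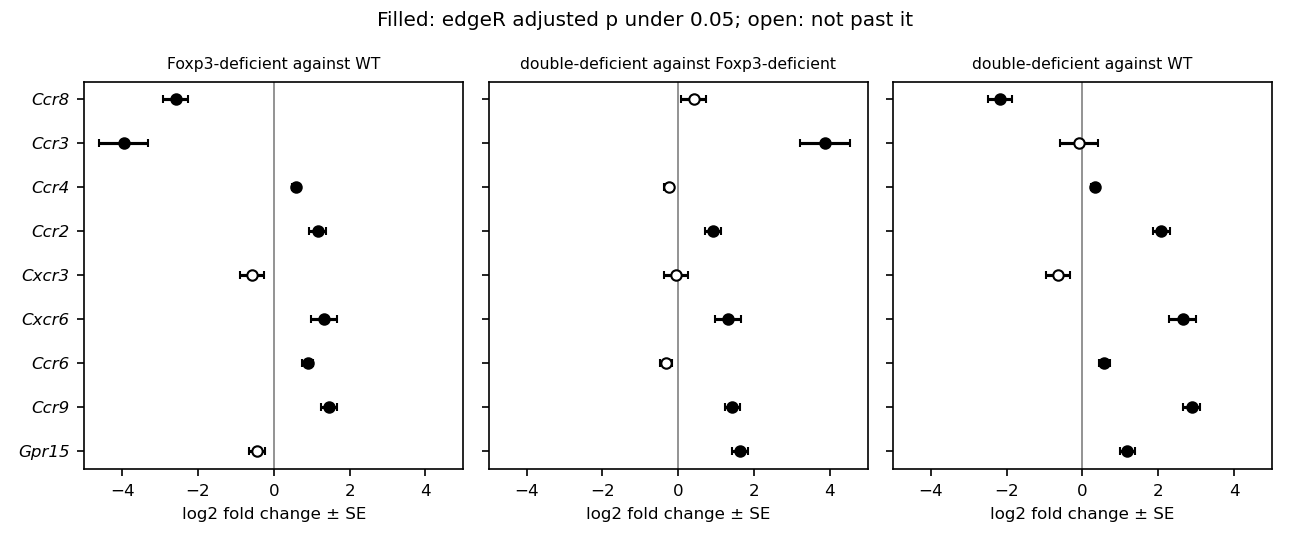
Log2 fold change ± SE from edgeR for each receptor in the 3 comparisons, filled where the adjusted p was under 0.05. Ccr8 and Ccr3 are the 2 filled points left of 0 in the first panel (-2.59 and -3.97), none is filled on the left in the second, and Ccr8 alone is in the third.

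**Figure D4:**
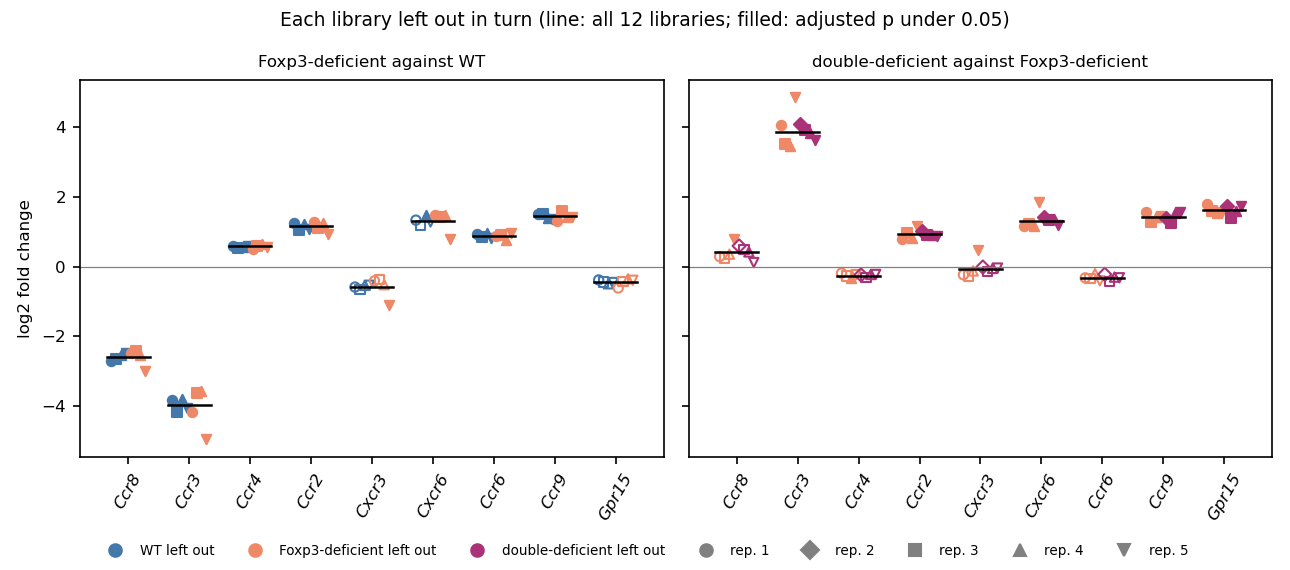
Log2 fold change of each receptor with 1 library left out at a time (points, coloured by group and shaped by replicate number) around the value from all 12 libraries (line), for the first 2 comparisons. Points without Foxp3-deficient 5 lie farthest from the line for Ccr8, Ccr3, Ccr2, Cxcr3 and Cxcr6, and in the second panel that point moves Cxcr3 from -0.07 to 0.47.

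Genes that lie among the receptors on chromosome 9 were compared next, to see whether neighbours that are no tissue-homing receptors moved too. In the stretch from Ccr9 to Ccr2 and its flanks, 9 tested genes are described, 4 of them members. Lztfl1, a ciliary transport gene that lies inside the body of Ccr9 on the other strand, had 7.34 to 9.81 CPM in WT, 11.9 to 17.9 in Foxp3-deficient libraries and 36.1 to 44.9 in double-deficient libraries. The 3 groups did not overlap, and the log2 fold changes were 0.68 and then 1.503 (edgeR adjusted p = 0.00481 and 9.62e-06). Ccr1, a receptor of myeloid and effector cells for Ccl3 and Ccl5, had 0.126 to 0.851, 0.413 to 1.23 and 2.48 to 7.25 CPM. It was called between double-deficient and Foxp3-deficient cells (2.67, edgeR adjusted p = 0.00134) and not in the first comparison (0.75, adjusted p = 0.420).

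Fyco1, which surrounds Cxcr6 on the opposite strand and acts in vesicle transport, went the other way from Cxcr6 in the second comparison (-0.67, edgeR adjusted p = 0.0132), a call lost without double-deficient 5 (adjusted p = 0.0511). In all, 6 of the 9 genes were called higher and 1 lower between double-deficient and Foxp3-deficient cells, beside 13.9% and 13.3% of all genes. The 6 include all 4 members, which were chosen with earlier results known, and 2 of the 5 tested neighbours. In Foxp3-deficient against WT cells 4 of the 9 were called higher and 1 lower, beside 6.99% and 6.74% of all genes. Of the 5 neighbours, 1 was higher there.

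**Figure D5:**
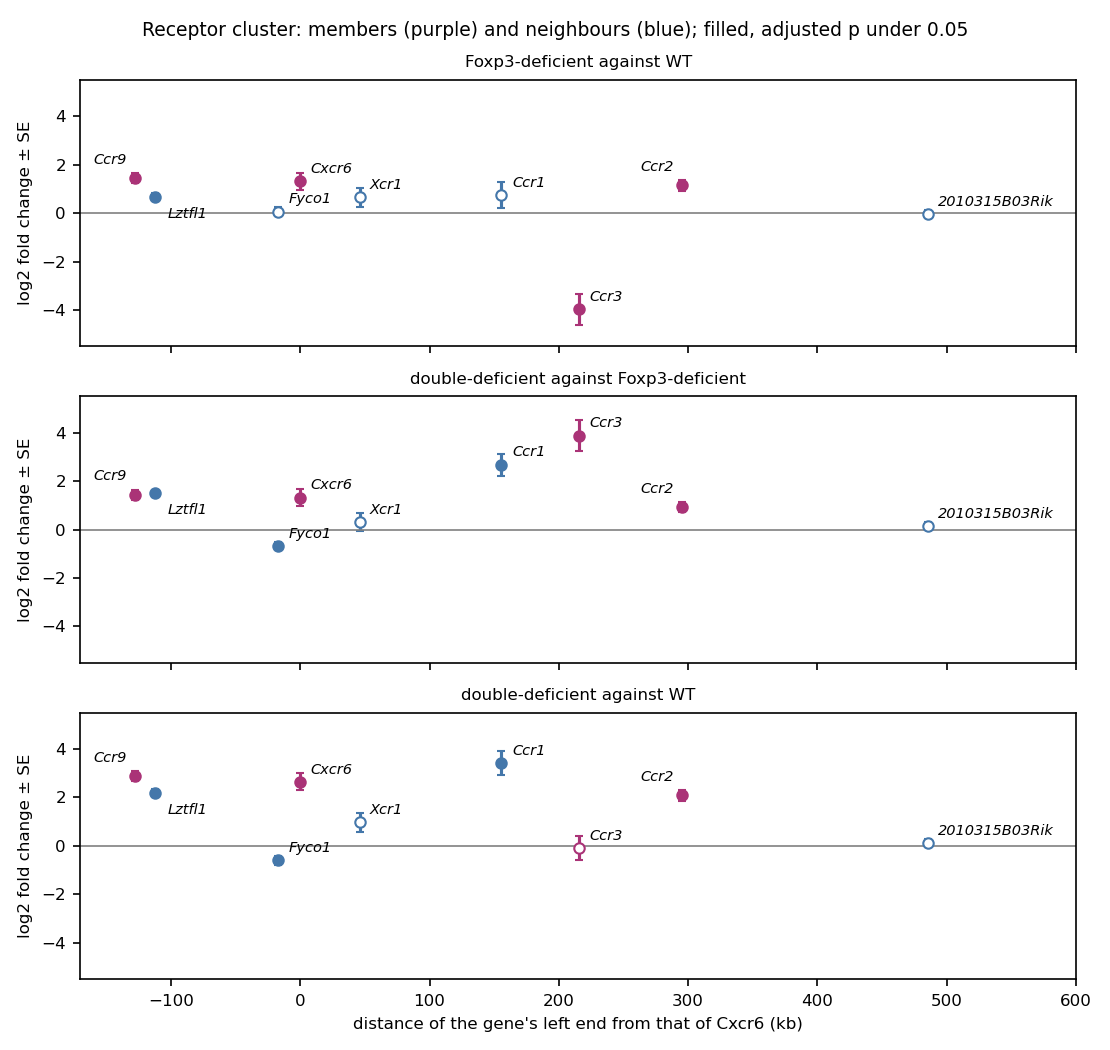
Log2 fold change ± SE for the 9 genes of the receptor cluster described here, by distance of the gene's left end from that of Cxcr6 in kb, in the 3 comparisons; purple points are members, blue points neighbours, filled where the edgeR adjusted p was under 0.05. In the middle panel Ccr9, Lztfl1, Cxcr6, Ccr1, Ccr3 and Ccr2 are filled above 0 and Fyco1 is filled below it.

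Outside the 9 members, 16 other chemokine receptor genes were listed, of which 9 had enough reads to be tested. In Foxp3-deficient against WT cells 2 were called higher and 1 lower, in double-deficient against Foxp3-deficient cells 2 higher and 1 lower, and in double-deficient against WT cells 4 higher and 1 lower, with medians of 0.72, 0.30 and 0.96. These were 33.3%, 33.3% and 55.6% of the 9, where 13.7%, 27.2% and 32.6% of all genes were called. Ccr7, the lymph node homing receptor, was at 555 to 684 CPM in WT, 969 to 1024 in Foxp3-deficient libraries and 862 to 1167 in double-deficient libraries, called in the first comparison (0.72, edgeR adjusted p = 5.97e-05) and not in the second (0.04, adjusted p = 0.752). Ccrl2, a receptor that presents chemerin without signalling, had the pattern of Ccr3, with 17.1 to 24.5, 3.79 to 13.7 and 18.0 to 23.4 CPM. It fell by 1.40 on the log2 scale and then rose by 1.39 (edgeR adjusted p = 0.00238 and 0.00297). Cxcr5, which leads cells to B cell follicles, was at 97.3 to 120 CPM in WT and lower at 13.7 to 29.9 CPM in double-deficient libraries (-2.36, edgeR adjusted p = 0.000297). The call of Cx3cr1 in the first comparison (6.28, edgeR adjusted p = 0.0269) came with only 7 reads in WT and was lost when any single WT library was left out (adjusted p up to 0.0909). Its size depended on Foxp3-deficient 5, without which the log2 fold change was 3.41.

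The chemokines these receptors bind are made mostly by other cells, and 6 of the 10 listed ligand genes in the table could be tested. Of these, 1 was called higher and 1 lower in each comparison (33.3% of the 6). Of all genes, 13.7% were called in Foxp3-deficient against WT cells, 27.2% in double-deficient against Foxp3-deficient cells and 32.6% in double-deficient against WT cells. With only 6 genes tested, the list was near the level of all genes in both comparisons of double-deficient cells. Ccl20, the ligand of Ccr6 and itself made by Th17 cells, was at 0.295 to 0.367 CPM in WT (28 reads), 6.77 to 28.5 in Foxp3-deficient libraries and 15.7 to 33.4 in double-deficient libraries. It rose in the first comparison (5.37, edgeR adjusted p = 1.20e-05), and by 4.76 without Foxp3-deficient 3. Ccl1, the ligand of Ccr8, was low throughout, with 0.397 to 0.758 CPM in WT, 0 to 0.155 in Foxp3-deficient libraries (6 reads in all) and 0.422 to 1.15 in double-deficient libraries. It fell by 2.78 and then rose by 3.26 on the log2 scale (edgeR adjusted p = 0.00790 and 0.00253). Ccl25, the ligand of Ccr9, had a lower level in double-deficient cells than in the Foxp3-deficient group (-0.67, edgeR adjusted p = 0.0133), a call lost with replicate number as a block (adjusted p = 0.0546).

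Of 8 genes for lymph node homing and egress, 4 were called higher and 0 lower in Foxp3-deficient against WT cells by edgeR, beside 6.99% and 6.74% of all genes. At an unadjusted p under 0.05 edgeR put 1 lower (Cxcr5), limma-voom called 1 lower after adjustment, and DESeq2 called 0. Ccr7, the egress receptor S1pr1 (0.58, edgeR adjusted p = 0.00190) and Klf2, the factor that drives S1pr1 (0.59, adjusted p = 0.0102), were among the 4. Between double-deficient and Foxp3-deficient cells 1 was higher and 2 lower, or 37.5% of the 8 beside 27.2% of all genes. The lower ones were Cxcr5 (-1.45, edgeR adjusted p = 0.00865) and Klf3 (-0.31, adjusted p = 0.0213), the latter a call lost when any 1 of 4 libraries was left out and with length and GC trends removed (-0.08, adjusted p = 0.466). Against WT, 5 were higher and 2 lower in double-deficient cells, or 87.5% beside 32.6% of all genes.

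Signalling below the receptors was followed in 34 genes for G proteins, kinases, arrestins and the cytoskeleton, of which 33 were tested. In the 3 comparisons 8, 5 and 11 were called higher and 2, 4 and 2 lower, and the medians were 0.20, 0.07 and 0.23. The shares called were 30.3%, 27.3% and 39.4%, beside 13.7%, 27.2% and 32.6% of all genes, so that in the second comparison the list was at the level of all genes. Rasgrp2, the activator of Rap1 that turns on integrins after chemokine binding, was at 164 to 215 CPM in WT and 332 to 436 in Foxp3-deficient libraries (1.09, edgeR adjusted p = 1.09e-05). Pik3r5, a regulatory subunit of the PI3-kinase that G proteins activate, was at 133 to 158, 201 to 241 and 253 to 291 CPM in the 3 groups, called in the first comparison (0.55, edgeR adjusted p = 0.000310). Gnaq, a G protein subunit of another class, was at 11.3 to 15.9 CPM in WT and 3.36 to 5.25 in Foxp3-deficient libraries (-1.69, edgeR adjusted p = 6.22e-05). In the second comparison Coro1a, an actin regulator, rose (0.48, edgeR adjusted p = 0.00184), and the arrestin gene Arrb1 (-0.63, adjusted p = 0.00403) and the integrin activator Tln1 (-0.40, adjusted p = 0.00532) fell. With length and GC trends removed Tln1 lost its call (-0.15, adjusted p = 0.163), and with the replicate block added Arrb1 did (-0.34, adjusted p = 0.0703).

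Of 13 genes for selectin ligands and adhesion, 12 were tested, with 3, 6 and 6 called higher and 1, 3 and 1 lower. The shares called were 33.3%, 75.0% and 58.3%, beside 13.7%, 27.2% and 32.6% of all genes. Itgae, the gut and skin retention integrin CD103, had the direction of Ccr8 in the first comparison and fell by 3.21 on the log2 scale (edgeR adjusted p = 2.92e-07). It was at 45.2 to 63.2 CPM in WT, 3.93 to 9.19 in Foxp3-deficient libraries and 9.70 to 16.0 in double-deficient libraries. St3gal6, a sialyltransferase of selectin ligand synthesis, was at 7.49 to 10.2, 20.6 to 29.0 and 35.0 to 47.6 CPM in the 3 groups and rose in both steps (1.48 and 0.74, edgeR adjusted p = 4.12e-06 and 0.00214). Fut7, the fucosyltransferase that completes the ligands, rose in the second comparison (1.33, edgeR adjusted p = 0.00145). Its value in the first was -0.20 (edgeR adjusted p = 0.661), and the difference of the 2 steps was not tested. Itgb7, the integrin chain that pairs for gut homing, was at 1642 to 1831 CPM in WT and 2130 to 2388 in Foxp3-deficient libraries (0.37, edgeR adjusted p = 0.00340).

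Transcription factors tied to these receptors were followed in 16 genes, all tested, with 4, 4 and 2 called higher and 5, 5 and 4 lower. These were 56.25%, 56.25% and 37.5% of the list, beside 13.7%, 27.2% and 32.6% of all genes. The last share was near that of all genes. The list includes Foxp3 itself, whose loss defines the deficient groups. Foxp3 was called lower in Foxp3-deficient against WT cells (-2.42, edgeR adjusted p = 1.18e-08) and in double-deficient against WT cells (-2.63, adjusted p = 2.95e-09). Its calls follow from the genotypes compared and are part of the counts and shares of those comparisons. Ahr, a factor for gut homing that acts on Gpr15, was at 38.2 to 43.8 CPM in WT and rose to 62.2 to 95.0 CPM without Foxp3 (0.89, edgeR adjusted p = 6.41e-05) and was not called between the deficient groups (-0.08, adjusted p = 0.617). Tbx21 was not called in any comparison, with log2 fold changes of 0.87, 0.05 and 0.92. It was still higher in every double-deficient library (35.7 to 54.8 CPM) than in every WT library (21.1 to 28.4 CPM), as were 20.5% of all genes. The spread was estimated over all 3 groups, with Foxp3-deficient 5 at 113 CPM. Bcl6, Foxo1 and Smad3 fell in the second comparison, by 1.72, 0.90 and 0.56 on the log2 scale (edgeR adjusted p = 2.69e-06, 0.000152 and 0.00109).

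For each receptor, the genes with the most similar pattern were found by Pearson's r of log2 CPM over the 12 libraries among the 8917 genes whose mean reached 5 CPM. These values describe a ranking and share libraries, depth and group means with the comparisons above. Ccr2 was most like Gna15 (r = 0.980), a G protein subunit gene, and Cxcr6 (0.980), so that 2 members were among each other's nearest genes. Cxcr6 was followed by Dera (0.974). Ccr8 was most like Sh3gl3 (0.980) and Adap1 (0.975), Ccr3 like Decr1 (0.976) and Tmbim1 (0.958), and Ccr9 like the kinase gene Pim2 (0.976) and the myosin gene Myo6 (0.974). Tmbim1 shows the shape of Ccr3 at a higher level, with 19.6 to 33.2 CPM in WT, 4.48 to 7.59 in Foxp3-deficient libraries and 14.6 to 25.0 in double-deficient libraries. Myo6 shows that of Ccr9, with 35.4 to 37.7, 82.1 to 114 and 258 to 332 CPM. Ccr4 was most like Hgsnat (0.960) and Jak2 (0.942), Ccr6 like Uap1 (0.936) and Rragc (0.926), Cxcr3 like Tspan31 (0.924) and Abhd4 (0.921), and Gpr15 like Trim34a (0.929) and Eno1b (0.912). Eno1b is a near-identical copy of Eno1 and its counts are uncertain.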

How the data were processed

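RNA-seq counts of 12 libraries were used. The authors deposited raw counts per gene. STAR 2.5.1b on mm10 (GRCm38) and HTSeq produced them, per the submitters' processing notes, and for HTSeq neither the strand setting nor the annotation release is stated in the labels. The 3 HTSeq summary entries served only as quality measures. Libraries were grouped by the labelled genotype. After filterByExpr, 13196 genes remained. TMM scaling and 1 robust fit of edgeR 4.0.16 (R 4.3.3) over the 12 libraries without covariates gave quasi-likelihood F tests, with Benjamini-Hochberg adjustment over all genes tested and a threshold of 0.05. CPM use TMM-scaled library sizes, and log2 CPM a prior count of 2. The biological coefficient of variation was 17.4%, and no 2 libraries agreed within sampling noise. Floors cover counting error only. As all 9 receptors passed the filter, the permutation test planned for genes below it was not needed.

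Positions and lengths come from GENCODE M21, to which 97.5% of the genes were matched, and promoters from RefSeq. The receptors, gene lists, tests and naming rules were chosen with earlier results of these data known. Named were all 9 receptors, per list up to 3 called genes by smallest adjusted p, and the 2 genes most like each receptor; Lztfl1, Fyco1, Cpox, Tbx21, Ccl5 and uncalled values were added for their position or after their values were seen. Some genes that these rules name are not reported here. The alternatives were scaling by relative log expression or upper quartile, the low-count filter dropped or stricter (1 CPM in 4 libraries, mean of 5 CPM), DESeq2 1.42.0, limma-voom (limma 3.58.1), a fit of the compared groups alone, replicate number as a block, removal of length and GC trends with and without that block, and leaving out libraries.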

Additional observations from a re-analysis of the deposited data

Results flagged for a closer look

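In the 27 groups of 4 libraries formed by the 9 receptors and 3 genotypes, 2 held a library far from the others, where the gap to the nearest library divided by the whole range exceeded Dixon's critical value; chance alone flags about 1 in 20 such groups. Ccr4 was at 53.7 CPM in double-deficient 3, and the other 3 libraries of that group lay between 44.8 and 45.5 CPM (gap over range 0.922). Cxcr6 was at 139 CPM in Foxp3-deficient 5, and the other 3 lay between 46.9 and 58.1 CPM (gap over range 0.878).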

How the results depend on the processing

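Of the 9 receptors, 7, 5 and 7 were called in the 3 comparisons, and with 1 library left out at a time the counts were 6 to 8, 5 to 7 and 6 to 7. Between double-deficient and Foxp3-deficient cells the count was 3 with length and GC trends removed together with the replicate block, and 3 without Foxp3-deficient 1 and 3 together. Ccr2 and Cxcr6 were the 2 calls lost there (adjusted p = 0.0715 and 0.0597, and 0.0590 and 0.123). Length and GC removal alone called Ccr4 (-0.35) and Ccr6 (-0.47) lower in that comparison, and the block called Ccr8 higher (0.53). The sign of Cxcr3 between double-deficient and Foxp3-deficient cells turned with the block (0.0635), with limma-voom (0.0797) and without Foxp3-deficient 5 (0.47), and with 1 library left out it ranged from -0.27 to 0.47. The sign of Ccr3 between double-deficient and WT cells, never called, turned with the block (0.32), with the block and length and GC removal (0.25), and without WT 1 (0.05), WT 4 (0.07) or double-deficient 2 (0.12), with a range over single libraries left out of -0.34 to 0.12. The cause was not tested. Cxcr6 lost its call in the first comparison with no low-count filter (adjusted p = 0.0816) and with only the groups compared (0.0506). The calls of Ccr8, Ccr3, Ccr4, Ccr2, Ccr6 and Ccr9 in the first comparison, of Ccr3, Ccr9 and Gpr15 in the second and of Ccr9, Cxcr6, Ccr2, Gpr15, Ccr6 and Ccr8 in the third held in all 19 alternatives run, 18 for Ccr3, which the stricter filter removes.

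Replicate numbers were taken to pair the samples only if r of the deviations of every same-numbered pair of libraries was over 0.1. Between WT and Foxp3-deficient libraries 3 of the 4 pairs were over it (r of 0.0289 to 0.203), and between Foxp3-deficient and double-deficient libraries 0 of 3 (-0.0434 to 0.0622), so the block was not made the main design. The labels do not say whether same-numbered WT and Foxp3-deficient libraries come from 1 heterozygous mouse. Over all genes the calls in the second comparison went from 3585 to 2130 with length and GC removal and the block, 2382 with only the groups compared and 2153 without double-deficient 5. Length and GC removal shifted the third comparison from 2084 higher and 2215 lower to 2483 and 1758, and with the block to 2003 and 1394. Reads were few for Ccr3 and Ccl1 in the Foxp3-deficient group (15 and 6) and for Cx3cr1 in WT (7).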
